A study of Mus musculus with 4 samples.

Results

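The genes described here are the inhibitors of cyclin-dependent kinases (CDKs) that are not classed as p53 targets, together with the repressor of their best known locus. The set was chosen by name and comprised 7 of the 55487 genes in the deposited table. It held the INK4 genes Cdkn2a, Cdkn2b, Cdkn2c and Cdkn2d, the KIP genes Cdkn1b and Cdkn1c, and the Polycomb gene Bmi1. Cdkn1a, the KIP gene induced by p53, was used as a reference. Levels were measured by RNA-seq in primary neural stem cells taken from the neocortex of mouse embryos and grown with bFGF and EGF. All 4 cultures carried floxed alleles and received lipid nanoparticles (LNP). The control was Tut1f/f with empty LNP and is labelled wild type. The Tut1 KO was Tut1f/f with Cre-LNP, which delivers mRNA for the recombinase that deletes DNA between loxP sites. The Trp53 KO was p53f/f with Cre-LNP, and the double KO was Tut1f/f;p53f/f with Cre-LNP. Treatment with Cre-LNP lasted 3 days. Neither a p53f/f culture with empty LNP nor an unfloxed culture with Cre-LNP was among the samples. Tut1 encodes the uridylyltransferase that adds the oligo(U) tail of U6 snRNA, and Trp53 encodes p53. Each group had 1 library, so no difference below has a replicate check or a test. Values are transcripts per 1000000 (TPM), which are scaled to transcript length and keep no sequencing depth.

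INK4 proteins bind Cdk4 and Cdk6 and keep them from D-type cyclins, whereas KIP proteins bind assembled cyclin complexes, above all those of Cdk2. Both classes keep the retinoblastoma protein in its active state and hold cells before S phase. Cdkn2a also encodes Arf, which restrains Mdm2 and so stabilises p53, and Bmi1 is known for repressing Cdkn2a in neural stem cells and allowing them to self-renew.

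The sum of TPM was just under 1000000 in each library, and 14036 to 14145 genes had a TPM of at least 1. All 9 neural stem cell markers, among them Nes, Sox2 and Pax6, were at a TPM of at least 1 in every library, with a summed TPM of 10595 to 12501. Neuron markers summed to 160 to 229, oligodendrocyte lineage markers to 42.4 to 55.1, and astrocyte markers to 82.2 to 93.5, with Gfap below 1 in every library. Most of each sum came from 1 gene, namely Map2 at 141 to 208, Pdgfra at 27.4 to 39.5 and Aldh1l1 at 76.1 to 90.8. Microglial and blood markers summed to at most 0.747, endothelial markers to at most 1.14, and fibroblast and mural markers to at most 0.496. The TPM of Trp53 was 120 in the control and 100 in the Tut1 KO library, against 39.7 and 41.9 in the Trp53 KO and double KO libraries. The TPM of Tut1 was 12.2 in the control, 29.8 in the library labelled Tut1 KO, 12.5 in Trp53 KO cells and 13.7 in double KO cells. Tut1 was thus highest in the library labelled as its knockout. A whole-gene value may miss a deleted exon, and exon coverage was not analysed here, so directions drawn from Tut1 deletion rest on the labels. The libraries also differed in sex-linked transcripts. The TPM of Xist was 188 in the Tut1 KO and 204 in the Trp53 KO library and at most 0.01 in the control and the double KO, and the TPM of Ddx3y was 0 in the former pair and 24.4 and 25.7 in the latter.

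A difference is given below on the scale of log2(TPM + 1), and a gene was tested where its TPM was at least 1 in either library. It was called where the absolute difference was at least 1. The 5 comparisons share libraries and are not independent of each other.

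Cdkn2a lies on chromosome 4 (GRCm38 chr4:89274471-89294653, minus strand, ENSMUSG00000044303) and makes 2 annotated transcripts that start 12461 nt apart. The upstream transcript begins with exon 1β, of 320 nt, and encodes p19Arf. The downstream transcript begins with exon 1α, of 207 nt, and encodes p16Ink4a. They share 575 bases of exons 2 and 3, which is 64.2% of the Arf transcript and 67.5% of the p16Ink4a transcript. The sequences across the exon 1 to exon 2 junction are shown because they are what tells the transcripts apart. They come from the GENCODE transcripts, and capitals mark exon 2.
p16Ink4a junction: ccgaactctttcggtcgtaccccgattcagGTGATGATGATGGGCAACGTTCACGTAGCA
p19Arf junction: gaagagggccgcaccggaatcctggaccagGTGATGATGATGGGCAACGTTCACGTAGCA
Exon 1α contributes 126 coding bases, a multiple of 3, and exon 1β contributes 190, which leaves a remainder of 1. The capitals are therefore read in a different frame in each transcript, which is why the proteins differ. A single gene-level TPM was deposited for Cdkn2a, so every value below is for p16Ink4a and p19Arf transcripts together.

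The start sites are shown because each transcript is made from a promoter of its own. The sequences are the parts of the RefSeq promoter windows (GRCm38.p6, minus strand) that lie upstream of the first exons as GENCODE annotates them. Capitals mark a match to letters bound by E2F factors, which the retinoblastoma protein restrains. The letters searched on both strands were TTT, then a pair of bases that were each C or G, then CGC.
Arf start, chr4:89294654-89294869: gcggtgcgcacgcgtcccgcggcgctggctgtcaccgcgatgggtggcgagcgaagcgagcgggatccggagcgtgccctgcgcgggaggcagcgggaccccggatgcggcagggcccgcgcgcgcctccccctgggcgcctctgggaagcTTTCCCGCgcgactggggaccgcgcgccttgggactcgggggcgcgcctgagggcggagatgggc
p16Ink4a start, chr4:89282193-89282442: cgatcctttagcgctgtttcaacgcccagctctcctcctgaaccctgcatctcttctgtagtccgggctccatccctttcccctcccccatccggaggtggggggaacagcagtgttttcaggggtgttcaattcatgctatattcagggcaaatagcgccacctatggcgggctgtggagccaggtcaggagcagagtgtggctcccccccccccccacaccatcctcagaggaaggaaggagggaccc
In windows from 250 bases before to 50 bases after the start, the Arf start held 45 CpG dinucleotides and 1 match to the E2F letters. As many or more CpG were found in 1.93% of the 32851 promoter windows, whose median was 7, and the E2F letters in 2.26% of them. The p16Ink4a start held 12 CpG, which 39.6% of windows matched or exceeded, and these letters were not in its window.

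**Figure D1:**
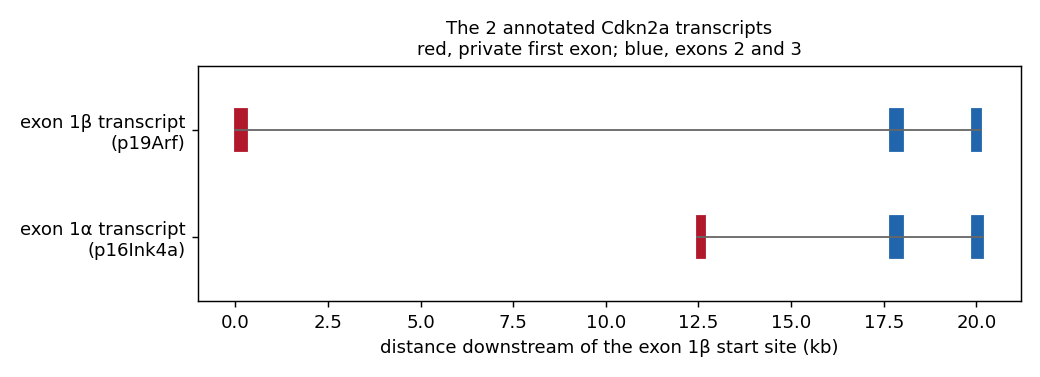
Exons of the 2 annotated Cdkn2a transcripts against the distance from the exon 1β start site in kb. Boxes are exons to scale and lines are introns. The red first exons are private to each transcript and start 12461 nt apart, and the blue exons 2 and 3 hold the 575 shared bases.

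Cdkn2a was expressed in all 4 libraries and varied little between them. Its TPM was 51.3 for control, 44.7 for Tut1 KO, 62.1 for Trp53 KO and 58.8 for double KO cells, and the highest value was 1.39 times the lowest, or 1.21 times without the Tut1 KO library. It ranked at the 77.3 to 82.4 percentile of genes with a TPM of at least 1. Both libraries with deleted Trp53 were above both libraries with intact Trp53. The difference was 0.27 between the Trp53 KO and the control and 0.39 between the double KO and the Tut1 KO. For the Tut1 deletion it was -0.19 with intact Trp53 and -0.08 with deleted Trp53. The former was -0.34 after the correction for GC content and length of transcripts and -0.09 after quantile normalization, and the latter ranged from -0.13 with the median of genes at a TPM of at least 10 set to 0 to -0.03 after the correction. No Cdkn2a difference reached the threshold for a call. The double KO exceeded the control by 0.19.

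Cdkn2b encodes p15Ink4b, the inhibitor known for its induction by TGF-β, and lies 11669 nt from Cdkn2a in the RefSeq annotation, on the same strand (GENCODE position chr4:89306299-89311039, ENSMUSG00000073802). Its TPM was 11.4 for control, 14.6 for Tut1 KO, 15.3 for Trp53 KO and 11.8 for double KO cells. The single knockouts were thus the higher pair, and the control and the double KO were nearly equal. The difference was 0.34 between the Tut1 KO and the control and 0.40 between the Trp53 KO and the control. The same pair of libraries was high for Xist, and the part of this split in the values of Cdkn2b was not tested.

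Neither gene flanking this INK4 locus was called in any comparison. Mtap, the methylthioadenosine phosphorylase gene 93382 nt from Cdkn2a (RefSeq position chr4:89137370-89181090), had a TPM of 94.0, 69.7, 97.2 and 96.9 in the libraries taken in the order above. Dmrta1, which is 377165 nt from Cdkn2b, had a TPM of 2.61, 1.76, 1.74 and 2.56 in the same order. The Mtap level was lowest in the Tut1 KO library, as was that of Cdkn2a.

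Cdkn2c encodes p18Ink4c, an inhibitor known from the exit of neural precursors from the cell cycle (chr4:109660876-109667189, ENSMUSG00000028551). It was the highest INK4 gene in 3 of the 4 libraries. Its TPM was 88.4 for control, 69.7 for Tut1 KO, 94.9 for Trp53 KO and 86.7 for double KO cells. The Tut1 KO library was the low one, at a difference of -0.34 from the control, and the highest of the other 3 was 1.09 times the lowest. In the Tut1 KO library Cdkn2d, at 70.2, stood beside Cdkn2c.

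Cdkn2d was the member that passed the threshold. It encodes p19Ink4d, which despite its similar name is unrelated to p19Arf, and is known for keeping neurons out of the cell cycle (chr9:21288410-21291407, minus strand, ENSMUSG00000096472). Its TPM was 60.2 for control, 70.2 for Tut1 KO and 86.4 for Trp53 KO cells, but 20.7 for the double KO. The double KO library was thus below each of the others, while the libraries with Xist were the higher pair, and the highest value was 4.18 times the lowest. Its percentile among genes with a TPM of at least 1 was 81.6 to 87.3 in the other libraries and 57.7 in the double KO. The difference was -2.01 between the double KO and the Trp53 KO, and 145 of the 14585 tested genes, or 0.994%, differed at least as much. It was -1.71 between the double KO and the Tut1 KO, where 1.45% of genes differed as much, and -1.50 between the double KO and the control, where 1.70% did. With single deletions Cdkn2d was not called, at 0.22 for the Tut1 KO and 0.51 for the Trp53 KO against the control.

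A level in the double KO that was lower than in each other library by at least 1 was seen for 53 of 15095 genes, or 0.351%. This form of pattern was chosen after the values of Cdkn2d were seen. Cdk2, the kinase that KIP proteins inhibit, and Zbtb7a, a repressor of Arf, were among the same 53 genes. The TPM of Cdk2 was 35.9 for control, 36.2 for Tut1 KO, 56.5 for Trp53 KO and 16.1 for double KO cells, and the difference between the double KO and the Trp53 KO was -1.75. Like Cdkn2d it was highest in the Trp53 KO and lowest in the double KO, and its libraries with Xist were the higher pair, by 0.01 over the control. The part of the sex of the cultures in the values of Cdkn2d and Cdk2 was not tested. In this bulk measurement fewer cells that express a gene and less RNA per cell cannot be told apart.

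Values are given for 3 genes around Cdkn2d, which were looked at after its values were seen, and 0 of these 3 were called in any comparison. Kri1, which lies 489 nt from Cdkn2d in the RefSeq annotation, had a TPM of 24.8 for control, 38.6 for Tut1 KO, 26.2 for Trp53 KO and 33.4 for double KO cells. Atg4d, an autophagy protease gene, was between 11.5 and 11.8 in all 4 libraries. Slc44a2 ranged from 14.5 to 28.8, with both libraries labelled for Tut1 deletion as the low ones. No exon of another gene, on either strand, overlaps Cdkn2d in the annotation. For Cdk2, Cdkn1c and Cdkn1a, 1 gene each on the opposite strand has an overlapping exon.

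**Figure D2:**
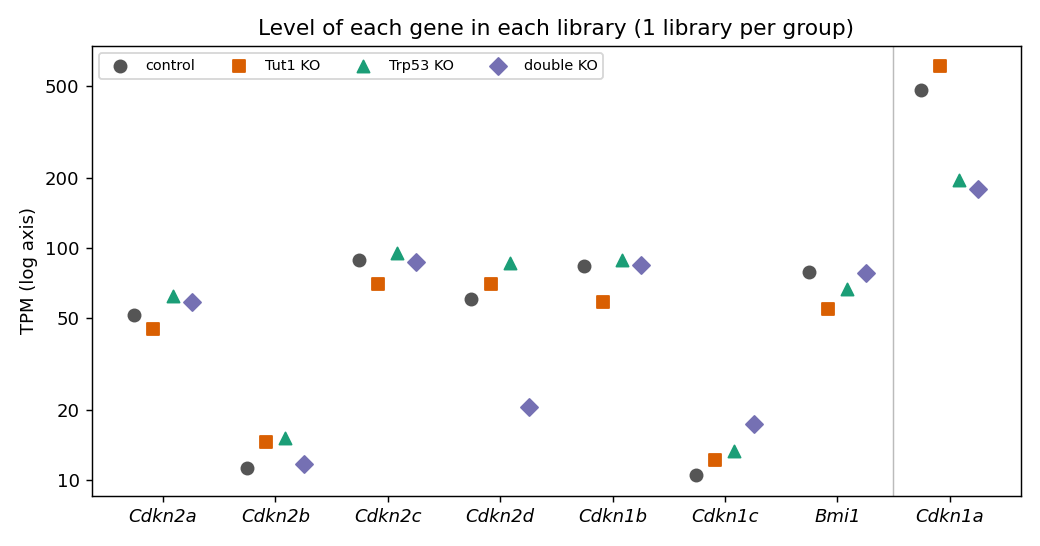
TPM on a log axis for each inhibitor gene, Bmi1 and the p53 target Cdkn1a, with 1 symbol per library. Cdkn2d in the double KO, at 20.7, stands below its other values of 60.2 to 86.4, and Cdkn1a splits by Trp53 into 477 and 605 against 196 and 179.

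Cdkn1b encodes p27Kip1, the main KIP inhibitor of quiescent cells (chr6:134920401-134925513, plus strand, ENSMUSG00000003031). Its TPM was 83.6 for control, 58.4 for Tut1 KO, 89.2 for Trp53 KO and 84.2 for double KO cells. Only the Tut1 KO library stood off, at -0.51 from the control, and the highest value was 1.53 times the lowest. Without that library it was 1.07 times. The double KO differed from the control by 0.01. Genes whose transcripts lay within 2 percentage points of the 43.1% GC content of Cdkn1b had a median difference of -0.25 between the Tut1 KO and the control. After each library was corrected for the GC content and length of transcripts, the difference of Cdkn1b was -0.24.

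Cdkn1c encodes p57Kip2, which is expressed from the maternal allele and is known for the cell cycle exit of cortical precursors (chr7:143458339-143461050, minus strand, ENSMUSG00000037664). It was the lowest member in the control, with a TPM of 10.5, and had a TPM of 12.2 for Tut1 KO, 13.4 for Trp53 KO and 17.5 for double KO cells. The double KO was the highest library, at 1.67 times the control. The difference was 0.20 for the Tut1 KO and 0.32 for the Trp53 KO against the control, and 0.69 for the double KO, which is short of a call. The difference for Tut1 deletion in cells with deleted Trp53 was 0.36. Of the other genes listed for its imprinted domain, 1 of 5 reached a TPM of 1. This was Nap1l4, a nucleosome assembly gene, which was not called and had a TPM of 179, 220, 164 and 208 in the same order.

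Bmi1 encodes a subunit of Polycomb repressive complex 1 (PRC1), which compacts chromatin and ubiquitinates histone H2A (chr2:18677018-18686629, plus strand, ENSMUSG00000026739). Its TPM was 78.5 for control, 54.5 for Tut1 KO, 66.8 for Trp53 KO and 78.3 for double KO cells. Without the Tut1 KO library the highest value was 1.18 times the lowest. The control and the double KO were equal to within 0.01 on the log2 scale, and the Tut1 KO was lowest, at -0.52 from the control. With deleted Trp53 the difference for Tut1 deletion had the opposite sign, at 0.23. Genes within 2 percentage points of the 40.2% GC content of Bmi1 had a median of -0.30 and 0.13 in these comparisons. The libraries with Xist were again the same pair on 1 side, here the low side. After the correction for GC content and length the differences of Bmi1 were -0.21 and 0.11. The part of the sex of the cultures in them was not tested. The library with the lowest Bmi1 was also the library with the lowest Cdkn2a, at 54.5 and 44.7 TPM.

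Across the members, 0 of 7 were called between the Tut1 KO and the control, where 4.73% of all tested genes were called. Between the double KO and the Trp53 KO, 1 of 7 was called, against 3.87% of all genes. Between the Trp53 KO and the control 0 of 7 were called, against 4.42%, and between the double KO and the Tut1 KO 1 of 7, against 4.64%. Between the double KO and the control 1 of 7 was called, against 4.23%. Cdkn2d was the called member each time and was lower in the double KO. The median member difference was -0.19 for the Tut1 KO against the control, beside -0.09 over all tested genes. It was -0.08 beside 0.04 for the double KO against the Trp53 KO, and 0.27 beside -0.05 for the Trp53 KO against the control. For the double KO it was 0.39 beside 0.08 against the Tut1 KO, and 0.01 beside -0.01 against the control. The Tut1 KO against the control was positive for 3 of 7 members, and the double KO against the Trp53 KO for 2. The Trp53 KO against the control was positive for 6 of 7, all but Bmi1. The double KO was above the Tut1 KO for 5 members and above the control for 4. The share of all tested genes with a positive difference is not given beside these counts.

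**Figure D3:**
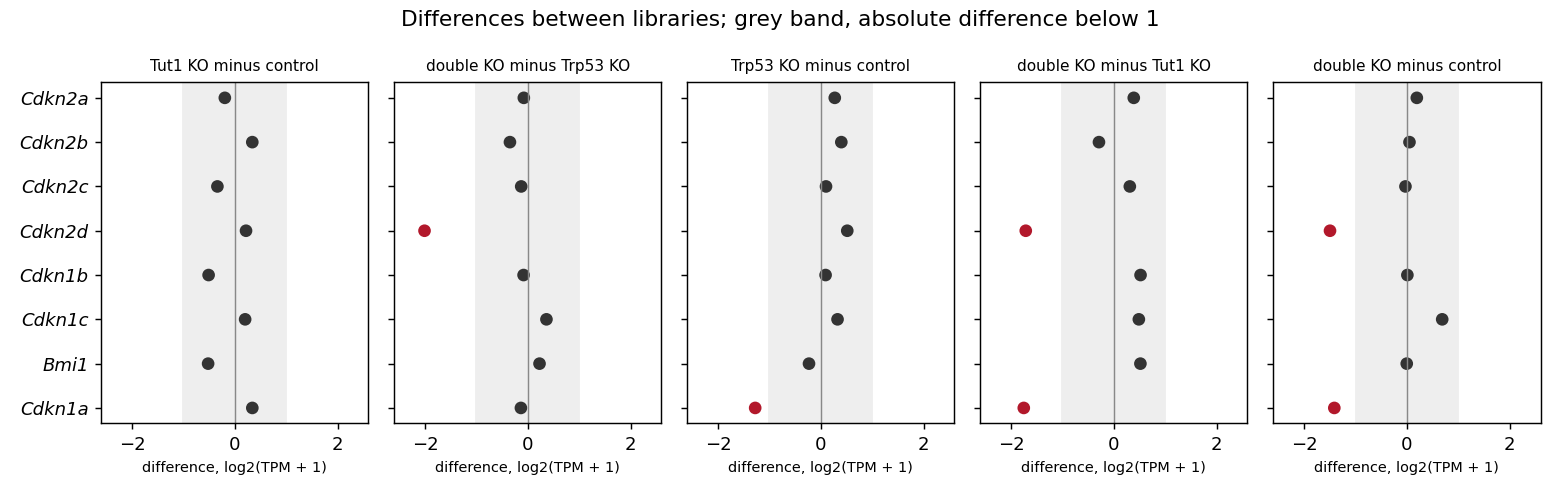
Difference of log2(TPM + 1) for each member and Cdkn1a in the 5 comparisons. Each point is 1 gene, the grey band covers absolute differences below 1, and red points are called. Cdkn2d is called in the 3 comparisons that hold the double KO, from -2.01 to -1.50, and Cdkn1a in the 3 that differ in Trp53.

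Grouped by the Trp53 label, 3 of 7 members were higher in both deleted than in both intact libraries, namely Cdkn2a, Cdkn1b and Cdkn1c, and 0 were lower. Of all 15095 genes that reached a TPM of 1 in any library, 14.7% were higher and 14.4% lower in this way. The Cdkn1b gap was 0.01, between 84.2 and 83.6 TPM, and was lost under quantile normalization, whereas Cdkn2a and Cdkn1c, with gaps of 0.19 and 0.12, stayed higher under each scaling tried. The Cdkn1c gap ranged from 0.05 under quantile normalization to 0.21 under the correction for GC content and length. Grouped by the Tut1 label, 0 of 7 members were higher and 1, Cdkn2c, was lower in both deleted libraries, against 15.0% and 17.9% of all genes. The Cdkn2c gap was -0.03 and was lost under the correction for GC content and length, where Cdkn2c was instead higher in both libraries with deleted Trp53, and Cdkn1b joined it on the low side under quantile normalization. Grouped by Xist, Cdkn2b and Cdkn2d were higher in the Tut1 KO and the Trp53 KO than in the control and the double KO, and Bmi1 was lower. These are 2 and 1 of 7 members, against 11.7% and 26.2% of all genes. These groupings were made after the values were seen.

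The members' summed TPM can be set beside that of Cdkn1a. Cdkn1a, which encodes p21Cip1, had a TPM of 477 for control, 605 for Tut1 KO, 196 for Trp53 KO and 179 for double KO cells. It was called lower wherever Trp53 differed, at -1.28 between the Trp53 KO and the control, -1.75 between the double KO and the Tut1 KO and -1.41 between the double KO and the control. For Tut1 deletion it differed by 0.34 with intact Trp53 and by -0.13 with deleted Trp53. The 6 member inhibitors summed to 305 TPM for control, 270 for Tut1 KO, 361 for Trp53 KO and 280 for double KO cells. As a share of the sum with Cdkn1a they made up 39.0%, 30.9%, 64.8% and 61.0%. Their share was thus higher in both libraries with deleted Trp53, where the summed TPM of all 7 inhibitors was 558 and 458, against 783 in the control and 875 in the Tut1 KO.

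Within the INK4 group the makeup differed most in the double KO. The 4 genes summed to 211 TPM for control, 199 for Tut1 KO, 259 for Trp53 KO and 178 for double KO cells. Cdkn2d made up 28.5%, 35.2%, 33.4% and 11.6% of these sums. Cdkn2a made up 22.4% to 24.3% in the other libraries and 33.0% in the double KO, and Cdkn2c 35.0% to 41.8% and 48.7%. Cdkn2b stayed between 5.37% and 7.34%. Cdkn1b and Cdkn1c together summed to 94.1, 70.7, 103 and 102 TPM. The transcripts of Cdk4 and Cdk6, the kinases that INK4 proteins bind, summed to 637, 721, 623 and 608 TPM, nearly all of it Cdk4. Their ratio to the INK4 sum was 3.01 for control, 3.62 for Tut1 KO, 2.41 for Trp53 KO and 3.41 for double KO cells.

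**Figure D4:**
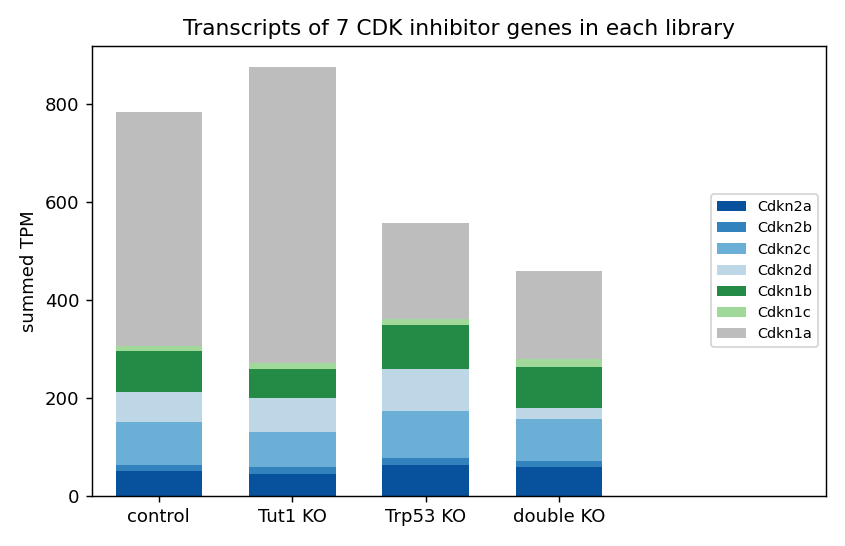
Summed TPM of 7 CDK inhibitor genes in each library as stacked bars from 0, with INK4 genes in blue, Cdkn1b and Cdkn1c in green and Cdkn1a in grey. The grey part is 477 and 605 in the libraries with intact Trp53 and 196 and 179 in those with deleted Trp53, and the Cdkn2d part is smallest in the double KO, at 20.7.

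The partners of these inhibitors were described by gene lists. Counts of list genes called in any comparison, here and below, have no share over all genes beside them. In single comparisons that share was 3.87% to 4.73%. Of 11 kinases, D cyclins, pocket proteins and E2F factors downstream of INK4 proteins, 0 were called in any comparison. Cdk4, the highest of them, had a TPM of 636, 720, 622 and 606 in the order used above. Of 5 genes for Cdk2, its cyclins and its activating phosphatase Cdc25a, Cdk2 was the 1 called, in the 3 comparisons that hold the double KO. With a pseudocount of 5 it was at -0.97 from the Tut1 KO and -0.96 from the control, short of a call. Of 7 genes that ubiquitinate p27Kip1, 0 were called, and Skp1, a subunit of the SCF ligase, was highest at 424 to 484 TPM. Of 3 Foxo factors, which are known activators of Cdkn1b, 0 were called, and Foxo3 was highest by its mean, at 17.8 to 26.7 TPM. Of 7 proliferation genes, 1 was called, the mitotic cyclin Ccnb1. Its TPM was 185 for control, 92.0 for Tut1 KO, 114 for Trp53 KO and 145 for double KO cells, and its difference between the Tut1 KO and the control was -1.0. The low pair was again the libraries with Xist, and the part of the sex of the cultures in the values of Ccnb1 was not tested. The call was lost under 5 of 6 alternatives, at -0.84 under the correction for GC content and length. The median of the 7 genes was -0.41 in this comparison, with 6 of 7 lower, beside -0.09 over all genes. Between the double KO and the Tut1 KO it was 0.29, with 7 of 7 higher, beside 0.08. Neither median is given after the correction for GC content and length.

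Among Polycomb genes, 0 of 15 further PRC1 subunits were called in any comparison, and Phc2 was the highest at 128 to 141 TPM. Of 10 PRC2 subunits, which methylate histone H3, 1 was lower and 1 higher between the Trp53 KO and the control, and likewise between the double KO and the control. Jarid2, an accessory subunit, had a TPM of 15.0 for control, 12.3 for Tut1 KO, 5.43 for Trp53 KO and 6.91 for double KO cells, with differences of -1.32 and -1.02 in these comparisons. Mtf2, another accessory subunit, had a TPM of 9.78, 15.2, 20.7 and 24.4 in the same order, with differences of 1.01 and 1.24. The libraries with deleted Trp53 were thus low for Jarid2 and high for Mtf2. With a pseudocount of 5 these 4 calls were lost, at -0.94 and -0.75 for Jarid2 and 0.80 and 0.99 for Mtf2. The Jarid2 call between the double KO and the control was also lost under quantile normalization, at -0.99, and under the correction for GC content and length, at -0.96.

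Of 11 other regulators of the Cdkn2a locus, 8 reached a TPM of 1 and 2 were called. Ets1, a transcription factor known to activate p16Ink4a, had a TPM of 36.8 for control, 3.69 for Tut1 KO, 32.9 for Trp53 KO and 37.4 for double KO cells. The Tut1 KO library alone was low, with a difference of -3.01 from the control. Zbtb7a had a TPM of 6.61 for control, 5.01 for Tut1 KO, 4.81 for Trp53 KO and 1.74 for double KO cells. It was called lower in the 3 comparisons that hold the double KO, at -1.08 from the Trp53 KO, -1.13 from the Tut1 KO and -1.47 from the control. With a pseudocount of 5 these were -0.54, -0.57 and -0.78, short of a call. The TPM of Cdkn2a in the same libraries was 51.3, 44.7, 62.1 and 58.8. Of 6 genes of the Arf and p53 axis, Trp53, Cdkn1a and the p53 target Ccng1 were called lower in each of the 3 comparisons that differ in Trp53 and 0 in the others. The Ccng1 TPM was 208, 181, 69.4 and 85.5.

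**Figure D5:**
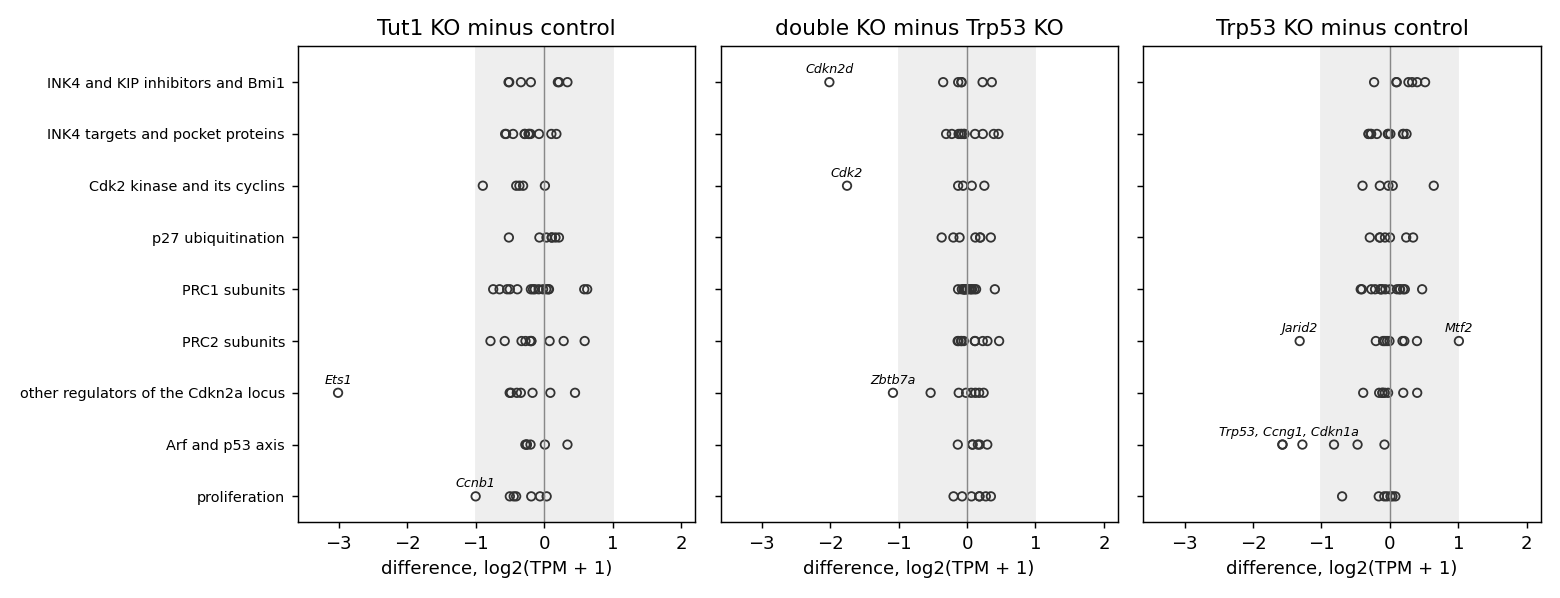
Difference of log2(TPM + 1) for each tested gene of 9 lists in 3 comparisons. Each circle is 1 gene, the grey band covers absolute differences below 1 and called genes are named. Nearly all genes lie within the band, and Cdkn2d and Cdk2, at -2.01 and -1.75, lie outside it between the double KO and the Trp53 KO.

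The genes whose levels over the 4 libraries were most like those of Cdkn2a were sought by the root mean square distance of log2(TPM + 1), each centred on its mean. The 5 nearest named genes were Kcnk5, a potassium channel gene, at 0.0151, Taf1d at 0.0154, Phf13 at 0.0174, Pmvk, of the mevalonate pathway, at 0.0212, and the bromodomain gene Brd2 at 0.0235. The Brd2 TPM was 81.6 for control, 73.0 for Tut1 KO, 96.6 for Trp53 KO and 93.8 for double KO cells. Over 4 libraries this likeness is a description only.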

How the data were processed

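RNA-seq was analysed in 4 libraries of mouse neural stem cells, 1 per group. The cultures with Cre-LNP were treated for 3 days. Per the labels, the authors processed the reads with Trimmomatic, HISAT2 and StringTie on mm10, which is GRCm38 (versions were not given in the sources used here), and deposited TPM values for 55487 genes. The labels name a stranded short-read mRNA kit whereas the series text also speaks of long reads, so the platform is not certain. TPM keeps no depth, so the depth of each library is unknown and no counting interval was given. No further sample columns were present (0).

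Groups were taken from the sample labels. Differences were computed as log2(TPM + 1), over genes with a TPM of at least 1 in either library, and called at an absolute difference of 1, with Python 3.11.15, numpy 2.4.6 and pandas 2.3.3. The code for differences and calls was run on copies of the control profile with known changes added. That run checked the calculation only, and not how often a call would repeat in new libraries. The members and lists were chosen with earlier results of these data known. The text names all members, the targeted genes, Cdkn1a, list genes called in any comparison or else the highest of each list, the genes flanking the Cdkn2a and Cdkn2b pair, and the 5 profiles nearest to Cdkn2a. The 3 genes around Cdkn2d and the sex-linked transcripts were added after values were seen. A further gene near Cdkn2d is not reported here. Positions came from GENCODE M21 and promoter windows from RefSeq (GRCm38.p6), which held entries for all members but Cdkn1c. Alternatives were other pseudocounts, scalings, TPM minimums and thresholds.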

Additional observations from a re-analysis of the deposited data

Results flagged for a closer look

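In 6 of the genes named above the differences for Tut1 deletion had opposite signs with intact and with deleted Trp53, and they differed by at least 1 on the scale of log2(TPM + 1). With 1 library per group this difference was not tested. Xist was high in the Tut1 KO and the Trp53 KO and Ddx3y in the control and the double KO. The difference between the Tut1 differences sets those same pairs of libraries against each other. The sex of the cultures and a dependence of the Tut1 difference on Trp53 therefore cannot be told apart in it. The largest such differences were those of Xist, at 15.2, and Ddx3y, at -9.41. For Cdkn2d the effect with intact Trp53 less that with deleted Trp53 was 2.23, from 0.22 and -2.01. For Cdk2 it was 1.76, from 0.01 and -1.75, so that Cdk2 was low in the double KO with next to no difference between the Tut1 KO and the control. For Ets1 it was -3.19, from -3.01 and 0.18, and for Ccnb1 it was -1.35, from -1.0 and 0.35. Ccnb1 was low in both libraries with Xist, and its call at -1.0 was lost under 5 of 6 alternatives. Over all genes with a TPM of at least 1 in any library, 1036 of 15095, or 6.86%, showed such a difference. For the other members the same quantity was between -0.75, in Bmi1, and 0.69, in Cdkn2b.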

How the results depend on the processing

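Under the alternative pseudocounts, scalings and the correction for GC content and length, the last chosen after seeing the data, 210 of 210 member differences kept their side of the threshold and 0 called values changed sign. For Cdkn2d the difference ranged from -2.06 to -1.83 between the double KO and the Trp53 KO, from -1.79 to -1.55 against the Tut1 KO and from -1.54 to -1.34 against the control. Between the Tut1 KO and the control, the correction moved Bmi1 from -0.52 to -0.21, Cdkn1b from -0.51 to -0.24, Cdkn1c from 0.20 to 0.10, Cdkn2d from 0.22 to 0.14 and Cdkn2a from -0.19 to -0.34, and quantile normalization moved Cdkn2a to -0.09 and Cdkn1c to 0.35. Between the double KO and the Tut1 KO, the correction moved Bmi1 from 0.52 to 0.21 and Cdkn1b from 0.52 to 0.27. In 3 cases an uncalled member difference, at most 0.03 in size, changed sign. At a 1.5-fold threshold 2 members were called between the double KO and the control, Cdkn2d and Cdkn1c. Counts over all genes moved more. In the order Tut1 KO against control, double KO against Trp53 KO, Trp53 KO against control, double KO against Tut1 KO and double KO against control, 693, 564, 644, 678 and 619 genes were called. With a pseudocount of 0.1 these were 1240, 1009, 1078, 1157 and 1072, and with a pseudocount of 5 they were 292, 257, 282, 281 and 248. At a 1.5-fold threshold they were 2220, 1574, 1650, 1966 and 1642, and with a TPM minimum of 10 they were 370, 288, 347, 349 and 299. No paired analysis was possible because each group has 1 library. Leaving out a library removes a whole group, so only the range of levels without the Tut1 KO library was computed.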
